A study of Mus musculus with 8 samples.

Results

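Embryonic red cells reach the brain in its blood, so a piece of embryonic brain carries globin and other red cell transcripts along with its own. The genes described here are 9 red cell genes chosen by name: the embryonic globins *Hba-x*, *Hbb-y* and *Hbb-bh1*, the alpha globin *Hba-a1*, the haem enzyme *Alas2*, the membrane proteins *Slc4a1* and *Epb42*, the transcription factor *Klf1* and the globin chaperone *Ahsp*. All probe sets (groups of short probes that read 1 transcript or a few near-identical ones) whose annotation names one of them were taken, which gave 18 probe sets of 8 genes among the 45037 probe sets tested. No probe set is named for *Ahsp*, and it was not analysed here. Of the 18 probe sets, 3 are shared by *Hba-a1* and its near-identical neighbour *Hba-a2*.

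Brains were taken at E12.5 from *Cre+, Rest GTi/GTi* embryos (4 arrays) and from *Rest GTi/GTi* littermates, the controls (4 arrays), and their RNA was hybridised to 1-colour Affymetrix arrays. Both groups are homozygous for a conditional gene trap in *Rest*, the gene of a transcriptional repressor of neuronal genes, in its inverted state that leaves splicing intact. Only the *Cre+, Rest GTi/GTi* embryos also carry the *Nestin Cre* transgene, which is active in nestin-expressing neural progenitors and there turns the trap into the orientation that stops the transcript. *Cre* and the loss of REST go together on every array and cannot be told apart. The strain is given as C57/BL6, the arrays are labelled as biological replicates, and whether an array holds 1 embryo or several is not stated, so p-values measure the spread between these arrays only.

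In the mouse embryo the first red cells, the primitive lineage, form in the yolk sac and enter the circulation while still nucleated, where they go on maturing and dividing. They make haemoglobin from the embryonic chains of *Hba-x*, *Hbb-bh1* and *Hbb-y* together with the alpha chains, and as they mature *Hbb-bh1* gives way to *Hbb-y* and *Hba-x* to *Hba-a1* and *Hba-a2*. Red cells of the definitive lineage, which come from the fetal liver, make the alpha chains and the adult beta chains. In the RefSeq annotation the alpha genes stand on chromosome 11 in the order *Hba-x*, *Hba-a1*, *Hba-a2*. The beta genes stand on chromosome 7, where *Hbb-y* is followed in the direction of transcription by *Hbb-bh1* and then by the adult genes *Hbb-bs* and *Hbb-bt*.

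Promoter sequence was at hand for 6 of the 9 genes, from RefSeq on the mouse build GRCm38.p6. The 250 bases before the start of *Hba-x*, *Hba-a1*, *Hbb-y* and *Alas2* are shown, 5′ to 3′ on the strand of the gene, as examples of an embryonic alpha-like gene, an alpha gene, an embryonic beta-like gene and a haem enzyme gene. Capitals mark, on either strand, CACCC (the core of the box that KLF1 binds), CCAAT, and GATA when preceded by A or T and followed by A or G. No match overlaps another in the windows shown.
Hba-x: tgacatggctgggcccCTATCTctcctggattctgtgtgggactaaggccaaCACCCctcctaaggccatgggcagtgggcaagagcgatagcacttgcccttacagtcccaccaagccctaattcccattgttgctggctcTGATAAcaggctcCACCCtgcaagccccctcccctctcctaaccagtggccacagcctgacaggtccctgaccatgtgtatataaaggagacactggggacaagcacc
Hba-a1: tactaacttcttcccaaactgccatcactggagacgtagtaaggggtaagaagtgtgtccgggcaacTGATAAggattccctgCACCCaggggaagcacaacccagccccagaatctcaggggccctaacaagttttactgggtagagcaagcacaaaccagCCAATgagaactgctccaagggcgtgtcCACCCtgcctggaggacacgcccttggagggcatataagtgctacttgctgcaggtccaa
Hbb-y: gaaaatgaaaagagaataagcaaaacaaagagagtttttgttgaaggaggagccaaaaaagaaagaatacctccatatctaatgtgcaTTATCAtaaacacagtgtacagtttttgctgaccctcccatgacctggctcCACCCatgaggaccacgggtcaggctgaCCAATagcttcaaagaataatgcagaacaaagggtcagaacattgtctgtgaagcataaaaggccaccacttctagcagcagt
Alas2: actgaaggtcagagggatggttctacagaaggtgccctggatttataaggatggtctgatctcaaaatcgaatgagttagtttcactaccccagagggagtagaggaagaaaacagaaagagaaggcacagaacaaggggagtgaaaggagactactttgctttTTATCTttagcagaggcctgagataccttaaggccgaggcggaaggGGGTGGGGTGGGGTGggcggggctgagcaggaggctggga
These windows are chr11:32276350-32276599 (plus strand), chr11:32283422-32283671 (plus strand), chr7:103853208-103853457 (minus strand) and chrX:150547167-150547416 (plus strand). A GATA motif was in 6 of the 6 windows, CACCC in 5 and CCAAT in 3. Among all 32851 promoter windows of the same length, 26.5% held a GATA motif, 52.0% CACCC, 33.8% CCAAT and 11.8% both a GATA motif and CACCC. A match of letters is a description and was not tested as a binding site.

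The arrays also differed in genes other than those of red cells. Pearson correlations between arrays ran from 0.982 to 0.991. *Rest* ranged over 84.4 to 216.7 in *Cre+, Rest GTi/GTi* brain, next to 170.1 to 271.8 in control brain, so the groups overlapped on its brightest probe set. All *Cre+, Rest GTi/GTi* arrays and control replicates 1 and 4 carried the Y-linked *Eif2s3y*, and control replicates 2 and 3 carried *Xist*. *Col3a1*, a collagen of connective tissue, reached 4864 and 4571 in *Cre+, Rest GTi/GTi* replicates 1 and 2, the remaining 6 arrays lying at 115 to 555. The defining neural genes of the marker list were present on every array, with summed intensities of 28695 to 33709 in *Cre+, Rest GTi/GTi* brain and 30943 to 32992 in control brain.

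No red cell gene was called different between the genotypes. Limma called 0 of the 18 probe sets at an adjusted p under 0.05, in a comparison that called 0.140% of all probe sets, and 0 of the 18 had groups that did not overlap, against 4.00% of all probe sets. None of the 18 had an unadjusted limma p under 0.05, and limma with trend and robust settings and the methods' t-test called 0 as well. Values below are normalized intensities (array signal after quantile normalization), given for each genotype in the order of replicates 1 to 4, and each fold change is log2 of the intensity plus 16, *Cre+, Rest GTi/GTi* over control. In bulk tissue, fewer red cells and less RNA per red cell cannot be told apart.

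*Hba-x* encodes zeta globin, the embryonic alpha-like chain. Its probe set (1448716_at) read 10458, 6929.5, 5314 and 6897 across the 4 *Cre+, Rest GTi/GTi* arrays, against 5898, 6437, 7421 and 7462 on the 4 control arrays. The *Cre+, Rest GTi/GTi* arrays held both the highest and the lowest of the 8 values, and the control values lay between them. The log2 fold change was 0.08 (standard error 0.19, 95% interval -0.35 to 0.52, limma adjusted p = 0.973, two-sided exact permutation p = 0.771, n = 4 each).

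*Hbb-bh1* encodes the embryonic beta-like chain that comes first in maturing primitive red cells. Its brightest probe set (1437990_x_at) read 6777, 3354, 2444 and 3278 across the 4 *Cre+, Rest GTi/GTi* arrays, against 2511, 2877, 4191 and 5124 on the 4 control arrays. On the log2 scale the spread within each genotype was wider than for *Hba-x*. Replicate 1 was the highest of the *Cre+, Rest GTi/GTi* arrays and replicate 4 the highest of the controls. The log2 fold change was 0.06 (standard error 0.33, 95% interval -0.70 to 0.82, limma adjusted p = 0.994, two-sided exact permutation p = 0.857, n = 4 each). Both other probe sets of the gene gave log2 fold changes of 0.09.

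*Hbb-y* encodes epsilon y globin, the embryonic beta-like chain of later primitive red cells. Its brightest probe set (1436823_x_at), the 5th brightest of all by mean, read 14815, 14592, 14132 and 13860.4 across the 4 *Cre+, Rest GTi/GTi* arrays, against 13515, 14306, 14306 and 14815 on the 4 control arrays. The 8 arrays differed by little, the highest being 1.10 times the lowest, and the log2 fold change was 0.01 (95% interval -0.13 to 0.16, limma adjusted p = 0.993, two-sided exact permutation p = 0.771, n = 4 each). As deposited, before normalization, the value was 15957 on *Cre+, Rest GTi/GTi* replicate 1 and 15836 on control replicate 4, in both cases the highest of all probe sets on that array. Quantile normalization gives every array the same highest value, here 14815, so both arrays tie by construction. How far the signal of a probe set at the top of the scale can still move was not tested. The narrow interval of *Hbb-y* is to be read with both points.

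*Hba-a1* and *Hba-a2* encode the same alpha chain, made in both lineages. The brightest shared probe set (1428361_x_at) read 11829, 12180.3, 11167 and 12598 across the 4 *Cre+, Rest GTi/GTi* arrays, against 11253, 12279, 13700.1 and 11683 on the 4 control arrays, a log2 fold change of -0.03 (95% interval -0.22 to 0.16, limma adjusted p = 0.978, two-sided exact permutation p = 0.714, n = 4 each). The genotypes overlapped almost fully here, and replicate 1 did not stand out. On the least bright of the 3 shared probe sets (1417714_x_at) it did, with 3124, 2144, 1659 and 1851 across the 4 *Cre+, Rest GTi/GTi* arrays, against 1678, 1873, 2286 and 1793 on the 4 control arrays. *Cre+, Rest GTi/GTi* replicate 1 was thus at 1.69 times the median of the other 7 arrays on this probe set and at 0.97 times on the brightest. The only probe set of *Hba-a1* alone stayed at 3.8 or below on all 8 arrays.

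**Figure D1:**
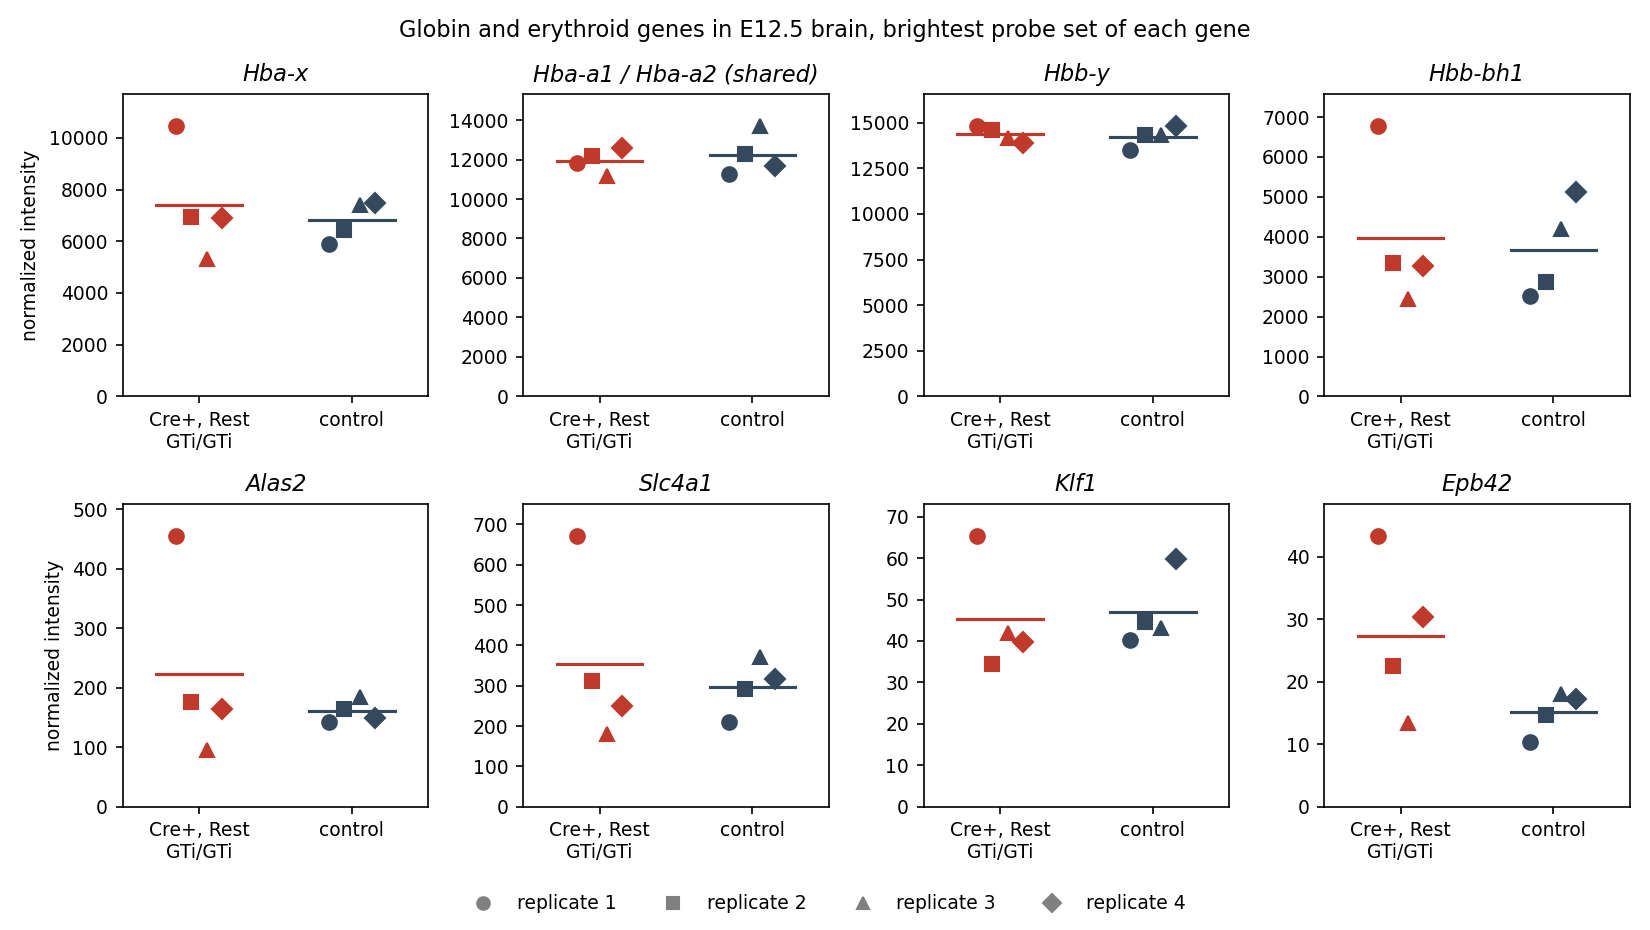
Normalized intensity (vertical axes, each from 0) of the brightest probe set of 8 red cell genes on each array, *Cre+, Rest GTi/GTi* left and control right. Symbols are replicates and lines are group means. Replicate 1 of *Cre+, Rest GTi/GTi* (circle) is the highest of its group for *Hba-x* (10458), *Hbb-bh1* (6777), *Alas2* (455), *Slc4a1* (671), *Klf1* (65.3) and *Epb42* (43.3), while the values of *Hbb-y* and *Hba-a1*/*Hba-a2* lie close together.

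*Alas2* encodes the first enzyme of haem synthesis in red cells. Its only probe set (1451675_a_at) read 455, 177, 94.9 and 165 across the 4 *Cre+, Rest GTi/GTi* arrays, against 143, 165, 184 and 149 on the 4 control arrays. The *Cre+, Rest GTi/GTi* arrays spanned a 4.79-fold range that enclosed all controls. The log2 fold change was 0.23 (standard error 0.38, 95% interval -0.62 to 1.09, limma adjusted p = 0.952, two-sided exact permutation p = 0.686, n = 4 each).

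*Slc4a1* encodes band 3, the anion exchanger of the red cell membrane. The brightest probe set (1416464_at) read 671, 312, 180.2 and 249 across the 4 *Cre+, Rest GTi/GTi* arrays, against 209, 293, 371 and 317 on the 4 control arrays, with a log2 fold change of 0.10 (standard error 0.36, 95% interval -0.72 to 0.91, limma adjusted p = 0.987, two-sided exact permutation p = 0.857, n = 4 each). As for *Alas2*, the *Cre+, Rest GTi/GTi* arrays held both ends of the range. Another probe set gave 0.25 (standard error 0.32), and one more stayed at 2.0 or below on all arrays.

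*Epb42* encodes protein 4.2, which ties band 3 to the membrane skeleton. Its values were low, near the added constant of 16: probe set 1417337_at read 43.3, 22.6, 13.4 and 30.3 across the 4 *Cre+, Rest GTi/GTi* arrays, against 10.4, 14.6, 18.1 and 17.3 on the 4 control arrays. In 3 of the 4 *Cre+, Rest GTi/GTi* arrays the value was above every control, and replicate 3 lay among the controls. The log2 fold change of 0.44 (standard error 0.20, 95% interval -0.02 to 0.90) did not pass the test (limma unadjusted p = 0.0575, adjusted p = 0.742, two-sided exact permutation p = 0.114, n = 4 each). Its size depended on the constant, at 0.73 with a constant of 1 and 0.24 with 50, and it was 0.18 as the mean of both probe sets, of which the other, at 6.0 or below everywhere, gave -0.08.

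*Klf1* encodes the transcription factor that switches on many red cell genes, adult beta globin among them. It read 65.3, 34.4, 41.9 and 39.8 across the 4 *Cre+, Rest GTi/GTi* arrays, against 40.3, 44.5, 43.2 and 59.7 on the 4 control arrays (1418600_at). One array of each genotype stood above the rest, *Cre+, Rest GTi/GTi* replicate 1 and control replicate 4. The log2 fold change was -0.05 (standard error 0.16, 95% interval -0.42 to 0.31, limma adjusted p = 0.982, two-sided exact permutation p = 0.714, n = 4 each).

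*Cre+, Rest GTi/GTi* replicate 1 was the highest of the 8 arrays for 7 of the 8 genes, the brightest *Hba-a1*/*Hba-a2* probe set being the exception. For *Hbb-y* this was a tie with control replicate 4 at the common top value that the normalization sets. Over all genes *Cre+, Rest GTi/GTi* replicate 1 was the highest array for 16.8%. It exceeded 1.5 times the median of the other 7 arrays for 6 of the 8 genes, against 11.1% of all genes, and 2 times for 4 of the 8: *Alas2* at 2.76, *Epb42* at 2.51 (from low values), *Slc4a1* at 2.29 and *Hbb-bh1* at 2.07 times the median. The mean of the 8 genes, each centred on its own mean over arrays, was 0.63, -0.02, -0.37 and -0.03 log2 units across the 4 *Cre+, Rest GTi/GTi* arrays, against -0.28, -0.10, 0.09 and 0.08 on the 4 control arrays. *Cre+, Rest GTi/GTi* replicates 1 and 3 thus marked both ends of the whole set of arrays.

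The direction of most fold changes turned with that 1 array. With all arrays, 6 of the 8 genes were above 0 and 2 below, with a median log2 fold change of 0.07, beside a median of -0.0014 over all 18193 genes. Without *Cre+, Rest GTi/GTi* replicate 1, 1 gene (*Epb42*, 0.28) was above 0 and 7 were below, with a median of -0.13. The values without it were -0.10 for *Hba-x*, -0.24 for *Hbb-bh1*, -0.16 for *Alas2*, -0.26 for *Slc4a1* and -0.20 for *Klf1*. Each of the 8 intervals included 0 with and without this array.

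**Figure D2:**
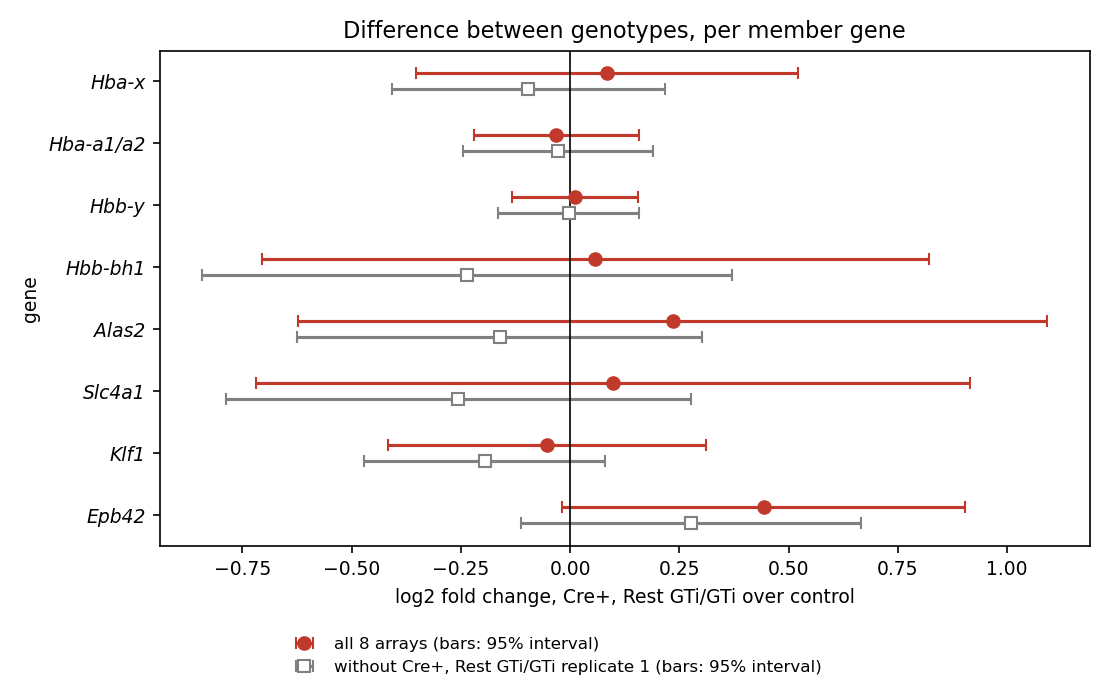
Log2 fold change of each gene (horizontal axis, *Cre+, Rest GTi/GTi* over control, on intensity plus 16) with its limma 95% interval, for all 8 arrays (filled circles) and without *Cre+, Rest GTi/GTi* replicate 1 (open squares). All intervals cross 0, and for *Hba-x*, *Hbb-y*, *Hbb-bh1*, *Alas2* and *Slc4a1* the estimate changes sign when that array is left out.

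Across the 8 arrays *Hba-x*, *Hbb-bh1*, *Alas2* and *Slc4a1* varied together, with Pearson correlations of 0.802 to 0.972 for their 6 pairs, and 0.518 to 0.916 over the 7 arrays without *Cre+, Rest GTi/GTi* replicate 1. The points are the same 8 arrays for every pair and share the normalization. The brightest probe set of *Hba-a1*/*Hba-a2* followed least, with correlations of -0.167 to 0.349 with the other 7 genes, whereas the least bright shared one correlated at 0.907 with *Hba-x*, 0.793 with *Hbb-bh1*, 0.941 with *Alas2* and 0.95 with *Slc4a1* over the same 8 arrays. The 10 genes outside the set whose values most resembled the mean of the 8, among 10689 genes with a mean intensity of at least 64, were *Car2* (r = 0.978), *Dtl* (0.977), *Fut10* (0.966), *Timm8a1* (0.963), *Abcb6* (0.962), *Rpl14* (0.961), *Slc25a37* (0.959), *Gpc1* (0.952), *Tmem14c* (0.948) and *Mpdz* (0.944), over n = 8 arrays. Over the 7 arrays left without replicate 1 the correlation was 0.821 to 0.946. The 10 genes were picked on all 8 arrays, these 7 among them, so this range is no separate check.

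Likeness in shape was not likeness in size. *Car2*, a carbonic anhydrase, read 1123, 534, 412 and 515 across the 4 *Cre+, Rest GTi/GTi* arrays, against 403, 487, 591 and 703 on the 4 control arrays. *Slc25a37*, mitoferrin 1, which brings iron into the mitochondrion for haem, was at 609 on *Cre+, Rest GTi/GTi* replicate 1 and between 206 and 354 on the others. *Abcb6*, a transporter of porphyrins, followed a similar order with values of only 269 to 299. *Tmem14c*, which takes part in porphyrin transport into the mitochondrion, ran from 868 to 1084, and the remaining genes include those of a ribosomal protein (*Rpl14*), a cell surface proteoglycan (*Gpc1*) and a scaffold protein (*Mpdz*).

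**Figure D3:**
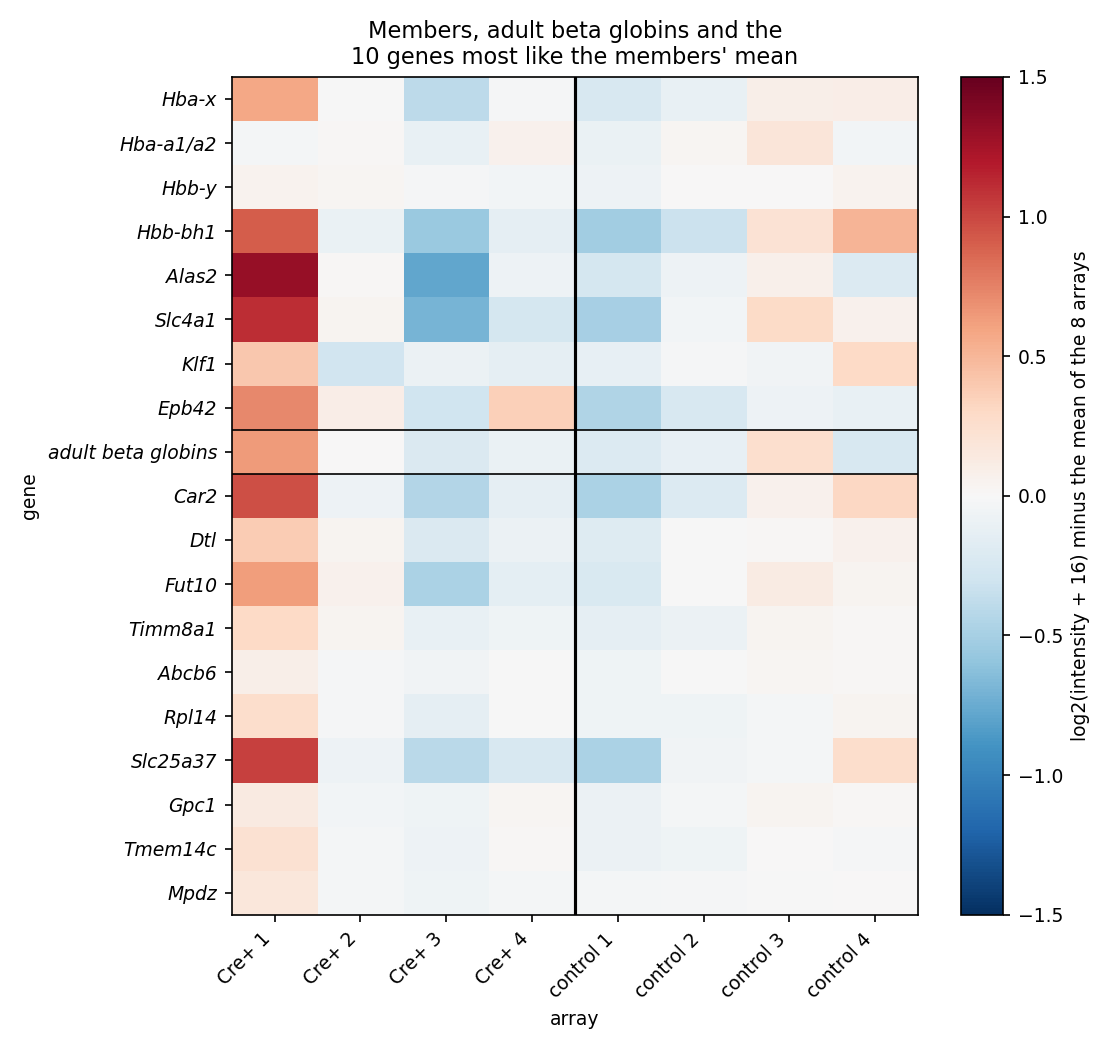
Log2(intensity + 16) minus its mean over the 8 arrays (colour scale, log2 units) for the 8 red cell genes, the adult beta globins and the 10 genes most like the mean of the 8, by array. The column of *Cre+, Rest GTi/GTi* replicate 1 is raised for most rows and that of replicate 3 lowered, with *Hbb-y* and the brightest *Hba-a1*/*Hba-a2* probe set close to 0 throughout.

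The balance of globin types differed between single arrays more than between genotypes. The adult beta globins are read by 1 probe set (1417184_s_at) whose annotation names *Hbb-bt*, *Hbb-bs*, *Hbb-b2* and *Hbb-b1*. It read 8729, 5618, 4837 and 5249.6 across the 4 *Cre+, Rest GTi/GTi* arrays, against 4861, 5152, 6676 and 4754 on the 4 control arrays. Control replicate 4, with the second highest *Hbb-bh1* of all arrays, had the lowest normalized adult beta globin, close to *Cre+, Rest GTi/GTi* replicate 3 and control replicate 1. As deposited, its value of 5183 was not the lowest: *Cre+, Rest GTi/GTi* replicate 4 (4176) and control replicates 1 (4941) and 2 (5034) lay below it. Levels of different probes cannot be set against each other, so the globin types were compared by their changes over arrays: the mean centred log2 value of *Hba-x*, *Hbb-y* and *Hbb-bh1* minus that of *Hba-a1*/*Hba-a2* and the adult beta globins.

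This difference was 0.21, -0.03, -0.16 and -0.05 across the 4 *Cre+, Rest GTi/GTi* arrays, against -0.13, -0.10, -0.11 and 0.36 on the 4 control arrays. It averaged -0.007 ± 0.16 over the *Cre+, Rest GTi/GTi* arrays and 0.007 ± 0.24 over the controls (SD, n = 4 each), a gap of -0.014 that is smaller than the spread within either genotype and moved to 0.10 without control replicate 4 and to -0.13 against the male controls alone. *Hbb-y* and the brightest alpha probe set lie at the top of the scale, so the difference was also taken, after the data were seen, with the least bright alpha probe set. It was then -0.12, -0.07, -0.08 and 0.04 across the 4 *Cre+, Rest GTi/GTi* arrays, against -0.05, -0.03, -0.11 and 0.42 on the 4 control arrays, a gap of -0.11. The value of *Cre+, Rest GTi/GTi* replicate 1 thus changed sign with the choice of alpha probe set, and control replicate 4 was the highest array with either. With *Hbb-y* left out as well, those 2 arrays were at 0.11 and 0.50, and the gap was -0.09. For *Hbb-bh1* minus adult beta globin alone, control replicate 4 was at 0.75 and *Cre+, Rest GTi/GTi* replicate 1 at 0.27, with the other 6 arrays between -0.34 and -0.03. For *Hba-x* minus the brightest alpha probe set the order turned, with *Cre+, Rest GTi/GTi* replicate 1 at 0.61 and control replicate 4 at 0.14. For *Hba-x* minus adult beta globin they were at -0.05 and 0.34. In the averaged difference and in *Hbb-bh1* minus adult beta globin, the highest array was thus not the one with the highest red cell values.

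On control replicate 4 the genes did not move as 1 block. *Hbb-bh1* and *Klf1* were the highest of the controls there, as was *Hemgn*, a nuclear protein of immature blood cells, at 62.5 against 15.3 to 37.8 on the other controls. *Hba-x* was the highest too, but by little (7462, against 7421 on control replicate 3). *Alas2* at 149 and *Slc4a1* at 317 lay within the range of the other controls. For *Hbb-bh1* minus *Alas2* this array stood at 0.71, and the other 7 lay between -0.40 and 0.22.

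**Figure D4:**
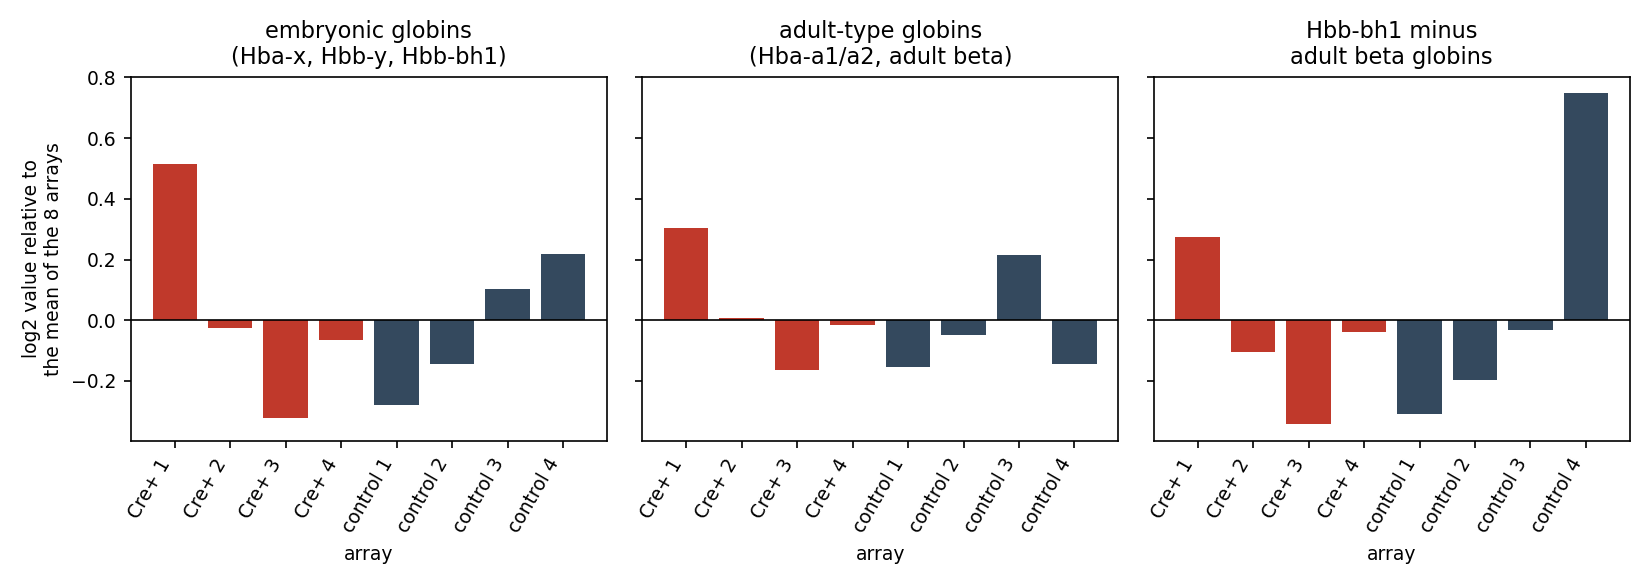
Mean centred log2 value per array (bars, log2 units relative to the mean of the 8 arrays) of the embryonic globins, of the adult-type globins (brightest alpha probe set) and of *Hbb-bh1* minus the adult beta globins, *Cre+, Rest GTi/GTi* in red and control in dark blue. *Cre+, Rest GTi/GTi* replicate 1 is highest in the first and second panels, and control replicate 4 (0.75) in the third.

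No further gene of the red cell programme was called. Of 77 further genes on 6 lists, 63 had a probe set, and limma called 0 of them, where 0.225% of all genes were called. At an unadjusted limma p under 0.05, 4 were above 0 and 1 below (7.94% of the 63, beside 6.97% of all genes), and limma with trend and robust settings and the methods' t-test also called 0. Their median log2 fold change was 0.04, with 38 above 0 and 25 below, and -0.04 with 26 above and 37 below once *Cre+, Rest GTi/GTi* replicate 1 was left out. That array was the highest of the 8 for 27 of the 63 genes and above 1.5 times the median of the other 7 for 19. Of the 63, each read by 1 probe set, only *Ppox*, *Slc40a1*, *Fth1* and *Tal1* had groups that did not overlap. The share over all probe sets, dim ones and several per gene included, was 4.00%.

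Among the other globins, no probe set of a single gene was bright. *Hba-a2* alone (1427219_at) read 38.7, 11.7, 33.5 and 34.3 across the 4 *Cre+, Rest GTi/GTi* arrays, against 30.5, 46.9, 38.4 and 46.2 on the 4 control arrays, and *Hbb-b2* alone (1427865_at) lay between 45.6 and 92.5 over all arrays. Their log2 fold changes were -0.35 and -0.16, and both groups overlapped.

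In haem synthesis, 9 of 10 listed genes were measured, 5 above and 4 below 0, with a median log2 fold change of 0.07. *Ppox*, protoporphyrinogen oxidase, read 380.3, 369.8, 379.6 and 332 across the 4 *Cre+, Rest GTi/GTi* arrays, all below the 384, 406, 480.0 and 411 of the 4 control arrays, a log2 fold change of -0.19 (limma adjusted p = 0.743). *Alad*, which joins the first precursors, gave 0.15, and *Fech*, the enzyme that inserts iron, 0.11. *Fech* was at 629 on *Cre+, Rest GTi/GTi* replicate 1 and between 414 and 529 elsewhere, and its fold change without that array was -0.0037.

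Among 8 measured genes of iron handling the median was 0.05, with 6 above 0 and 2 below. *Slc40a1*, the iron exporter ferroportin, had the lowest adjusted p of all 63 genes (limma adjusted p = 0.43, log2 fold change 0.54, standard error 0.14). It read 296, 274, 242 and 184 across the 4 *Cre+, Rest GTi/GTi* arrays, all above the 164, 144, 180 and 166 of the 4 control arrays, and its fold change was 0.46 without replicate 1. *Fth1*, the ferritin heavy chain that stores iron, was also higher on every *Cre+, Rest GTi/GTi* array (6710, 6054, 5929 and 5655) than on any control (5362, 5567, 5278 and 5459), by 0.17 (limma adjusted p = 0.726). *Slc40a1* and *Fth1* are made by macrophages as well as by red cells, and *Flvcr1*, a haem exporter, gave 0.04.

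Of 15 measured membrane genes 13 were above 0, the largest such share among the red cell lists, with a median of 0.11 that became -0.04 without *Cre+, Rest GTi/GTi* replicate 1. That array exceeded 1.5 times the median of the others for 8 of them. *Kel*, the Kell blood group protein, was at 209 there and between 58.8 and 115 elsewhere, and *Ermap*, another blood group protein, at 236 against 69.7 to 136. *Aqp1* (0.55), *Xk* (0.42) and *Tmod1* (0.33) had the smallest p of this list, at low intensities in *Aqp1* and *Xk* (2.5 to 43.7 over the arrays). *Aqp1* is a water channel also of endothelium and choroid plexus, and it was highest on *Cre+, Rest GTi/GTi* replicate 2.

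The 16 regulators, all measured, had a median of 0.02, with 9 above 0 and 7 below. *Tal1*, a transcription factor of blood that is also used by neurons of the brainstem and midbrain, read 609.6, 561, 708 and 666 across the 4 *Cre+, Rest GTi/GTi* arrays, all below the 761, 717, 773 and 722 of the 4 control arrays (log2 fold change -0.22, limma adjusted p = 0.675). *Zfpm1*, the GATA1 partner FOG1, gave -0.16 and *Sox6* -0.16. *Nfe2*, a factor of late red cells and megakaryocytes, was at 117 on *Cre+, Rest GTi/GTi* replicate 1 and 21.9 to 49.4 on the others, and *Epor*, the erythropoietin receptor, at 60.4 there and 9.9 to 41.6 on the others. These were 2 of the 7 regulators for which this array was the highest, and on the other arrays their order differed from that of the globins.

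Of 13 measured red cell enzymes and maturation genes 5 were above 0 and 8 below, with a median of -0.07. *Blvrb*, biliverdin reductase B, gave 0.52, *Car1*, a carbonic anhydrase, -0.32, and *Pklr*, the pyruvate kinase of red cells and liver, -0.16, none of them called. *Blvrb* was at 199 on *Cre+, Rest GTi/GTi* replicate 1 and between 55.6 and 135 elsewhere. *Trim10*, a red cell maturation gene, was at 186 there and between 52.9 and 111 elsewhere.

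Markers of other cells were set beside these values. Megakaryocytes and platelets share the blood with red cells, and *Pf4*, a platelet chemokine, was at 444, 291, 137 and 141 across the 4 *Cre+, Rest GTi/GTi* arrays, against 93.9, 132, 127 and 160.0 on the 4 control arrays. Of 7 measured platelet genes 0 were called, and their summed intensity was 638 to 1024 in *Cre+, Rest GTi/GTi* brain, next to 522 to 619 in control brain. *Cre+, Rest GTi/GTi* replicate 1 was the highest array for 4 of the 7. *Gp1bb* was lowest there (210) and highest on replicate 3 (325), and *Itga2b* was highest on replicate 4 (110). *Gp9*, at low intensities, read 32.4, 12.2, 11.4 and 11.2, against 4.5, 1.7, 4.8 and 2.0 on the controls (limma adjusted p = 0.43). All 8 endothelial genes were above 0 and 0 were called, with sums of 970 to 1574 in *Cre+, Rest GTi/GTi* brain, next to 860 to 957 in control brain, highest on *Cre+, Rest GTi/GTi* replicates 1 and 2. The mesenchyme sum was 9375 and 12935 there, the remaining 6 arrays having 342 to 1165, with 0 of 8 genes called.

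*Cre+, Rest GTi/GTi* replicate 2 had the highest mesenchyme sum and red cell values in the middle of the range, and both kinds of gene were high together on replicate 1 only. The part of mesenchymal, endothelial and platelet RNA in the red cell values of replicate 1 was not tested. Of the liver and yolk sac list, *Afp* and *Alb*, its defining genes, stayed at 8.7 or below and 15.2 or below on all arrays. *Ttr*, which the choroid plexus also makes, was at 4672, 5232, 34.6 and 22.3 across the 4 *Cre+, Rest GTi/GTi* arrays, against 34.3, 98.3, 196 and 2864 on the 4 control arrays. Of 8 macrophage genes 7 were called higher in *Cre+, Rest GTi/GTi* brain, with sums of 1637 to 1802 there and 483 to 593 in controls. These sums were alike on all *Cre+, Rest GTi/GTi* arrays, whereas the red cell genes differed among them. *Mrc1*, the listed gene that was not called (limma adjusted p = 0.619), did differ among these arrays. It read 234, 131, 27.6 and 33.9 across the 4 *Cre+, Rest GTi/GTi* arrays, against 5.7 to 29.2 on the controls. Like most of the red cell genes, *Mrc1* was highest on replicate 1. The part of the macrophage genes in the values of *Slc40a1* and *Fth1* was not tested.

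**Figure D5:**
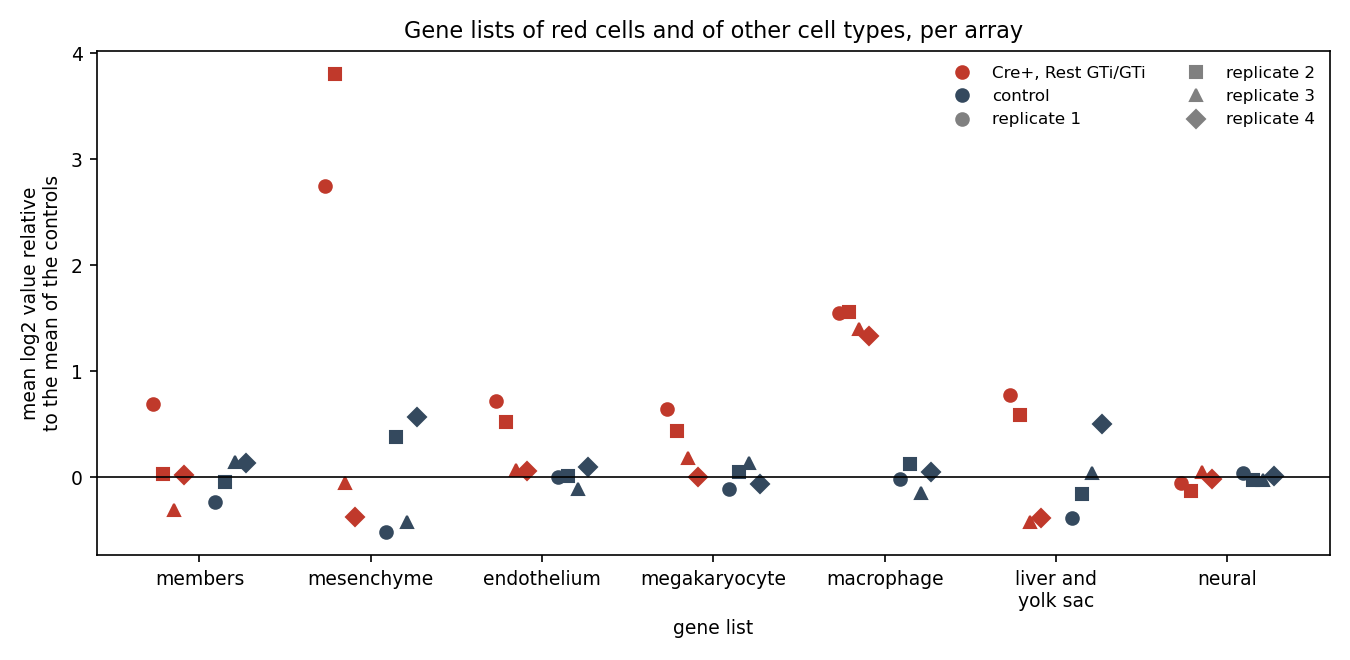
Mean log2(intensity + 16) of each gene list per array, with the control mean as 0 (vertical axis, log2 units), *Cre+, Rest GTi/GTi* in red left of control in dark blue, with a symbol for each replicate. The 8 red cell genes are highest on *Cre+, Rest GTi/GTi* replicate 1 (0.69), the mesenchyme list on replicate 2 (3.81), and the macrophage list is raised on all 4 *Cre+, Rest GTi/GTi* arrays (1.33 to 1.55).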

How the data were processed

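Brain RNA of embryos at E12.5 was read on 8 Affymetrix mouse arrays. What was deposited is 1 intensity per probe set and array, on a linear scale from 0, not scaled between arrays. The authors' methods state RMA and log2 values compared by t-test, adjusted after Benjamini and Hochberg, and which step made the deposited values is not stated. The labels name RMA without a version.

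Of 45101 probe sets, the Affymetrix controls were left out and 45037 were quantile normalized. Log2(intensity + 16) was tested with limma 3.58.1 (lmFit, eBayes; R 4.3.3), adjusted by Benjamini-Hochberg over all probe sets and called at 0.05, with an exact permutation test over arrays for single genes (smallest possible two-sided p 0.0286). The mean of 30.6% of probe sets lay under the added constant of 16, which understates their changes, *Epb42*, *Aqp1*, *Xk* and *Car1* being near or below it. The number of arrays limits the precision.

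The annotation names 1 gene for 34945 probe sets and several for 932. Each gene is represented by its probe set with the highest mean (18193 genes). For *Hba-a1* the probe sets shared with *Hba-a2* were counted. The genes and lists were chosen with earlier results of these data known. Named were the 9 genes, other globins, up to 3 genes with the smallest p in each red cell list, and the 10 genes most alike by Pearson correlation. *Kel*, *Ermap*, *Nfe2*, *Epor*, *Hemgn*, *Trim10*, *Pf4*, *Gp1bb*, *Itga2b*, *Gp9*, *Ttr*, *Afp*, *Alb* and *Mrc1* lie outside this rule, having been picked with their values in view. The fitting step was tested on simulated data. Alternatives were other scalings, constants, tests, filters, probe set choices, covariates, a replicate block and leaving out arrays. Sorted progenitors are not analysed here.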

Additional observations from a re-analysis of the deposited data

Results flagged for a closer look

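In 4 of 72 groups of 4 arrays examined (36 results), 1 array lay far from the others by the ratio of its gap to the whole range of the group (Dixon's test at the 95% level), and chance alone gives about 1 in 20. The difference between embryonic and adult-type globins was highest on control replicate 4, with a ratio of 0.939 (0.36 there and -0.13 to -0.10 on the other controls, with the brightest alpha probe set). *Fech* was highest on control replicate 3 (ratio 0.847), *Tmod1* on control replicate 4 (ratio 0.83), and *Flvcr1* was lowest on *Cre+, Rest GTi/GTi* replicate 4 (ratio 0.937, 517 there and 538 to 540 on the others of its group). *Cre+, Rest GTi/GTi* replicate 1, the highest array of most red cell genes, passed this limit in 0 groups.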

How the results depend on the processing

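In the main setting 0 of 18 red cell probe sets and 0 of 63 further red cell genes were called. The counts were also 0 in all 24 alternatives. Some of these tested fewer probe sets (the filters on dim and on less specific ones) or genes in place of probe sets (the mean over probe sets). The median log2 fold change of the 8 genes was 0.07 and ranged from -0.13 to 0.24 when single arrays were left out. It was -0.02 with a common median, 0.10 with no scaling and -0.15 from *Cre+, Rest GTi/GTi* replicates 3 and 4 alone. The SD between replicates was 0.32, which is a spread of single arrays and not the uncertainty of a difference between group means. The globin type difference ran from -0.09 to 0.10 without single arrays and was -0.13 against the male controls alone. With the least bright alpha probe set, a choice made after seeing the data, it was -0.11, and -0.09 without *Hbb-y* as well.

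Some fold changes near 0 changed sign, and the cause was not tested. With a common median *Hbb-y* was at -0.053, *Hbb-bh1* at -0.032 and *Flvcr1* at -0.012. From *Cre+, Rest GTi/GTi* replicates 3 and 4 alone, *Hba-x* was at -0.161, *Hbb-y* at -0.024, *Hbb-bh1* at -0.317, *Alas2* at -0.309, *Slc4a1* at -0.431 and *Fech* at -0.062. *Hba-a1* was at 0.001 with cyclic loess, 0.05 as the mean of its probe sets, 0.031 unscaled, and 0.057 against male controls and also with sex as a covariate. Without less specific probe sets it was at 0.028, from the only probe set left, which stayed at 3.8 or below on all arrays. *Klf1* was at 0.045 unscaled. *Alad* was at -0.034 as the mean of its probe sets and -0.222 without less specific ones, where *Xk* was at -0.059. When single arrays were left out, *Hba-x* ran from -0.096 to 0.229, *Hba-a1* from -0.07 to 0.025, *Hbb-y* from -0.013 to 0.031, *Hbb-bh1* from -0.236 to 0.253, *Alas2* from -0.162 to 0.534, *Slc4a1* from -0.256 to 0.347, *Klf1* from -0.196 to 0.04 and *Fech* from -0.004 to 0.191.

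Leaving out less specific probe sets leaves none for *Hbb-y*, *Hbb-bh1* and *Alas2*, so the globin type difference was not run there. With the replicate block the median was 0.07 and 0 of 18 probe sets were called. The numbers did not pair the arrays: residual correlations were -0.13 to 0.007 for equal numbers and -0.061 to 0.106 for unequal ones, and 0 of 8 arrays correlated best with their own number.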
